A study of Mus musculus with 6 samples.

Results

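The 10 genes described here encode innate immune sensors and the proteins that carry their signals. They are the Toll-like receptors Tlr2, Tlr3 and Tlr4, the cytosolic sensors Nod1, Nod2 and Ifih1, the adaptors Myd88, Ticam1 and Mavs, and the transcription factor Irf3. They were selected by gene name, and all 10 were found among the 54532 genes of the count table. mRNA had been sequenced in MLE12 cells, an immortalised mouse lung alveolar epithelial line that the labels assign to strain C57BL/6J, in 2 groups of 3 libraries. Ctrl shRNA cells received 1 negative control lentivirus (shCtrl). The paper calls its construct empty but lists a short sequence for it, and whether it expresses a hairpin is not stated. Knockdown cells received 2 lentiviruses at the same time, one with Idh3α shRNA, against a subunit of the mitochondrial isocitrate dehydrogenase, and one with Slc25a1 shRNA, against the mitochondrial citrate carrier. Each lentivirus was used at a multiplicity of infection of 50, the medium was renewed after 16 h, and the cells were then grown for a further 80 h in both groups. The knockdown and the larger number of viral particles went together and cannot be told apart in these libraries. The labels list no LPS or other microbial ligand for any library, and they do not say whether the 3 libraries of a group came from separate cultures, so p-values measure only the spread between these libraries.

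Innate sensors recognise molecules that microbes carry or that appear where nucleic acid should not be. TLR2 binds bacterial lipopeptides together with TLR1 or TLR6, TLR4 binds LPS together with MD-2 and CD14, and TLR3 binds double-stranded RNA in endosomes, while NOD1 and NOD2 sense fragments of peptidoglycan and MDA5, the product of Ifih1, senses long double-stranded RNA in the cytosol. TLR2 and TLR4 signal through MyD88 to NF-κB, TLR3 and TLR4 through TRIF, the product of Ticam1, and MDA5 through MAVS on mitochondria, and the TRIF and MAVS branches activate IRF3 and with it the gene for interferon β. Alveolar epithelial cells carry several of these receptors and release chemokines when the receptors are engaged.

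The libraries held 27273502 to 28535653 counts each. Ctrl shRNA library 2 stood apart: it had counts for 16681 genes against 19902 to 23147 in the other 5, its 100 most counted genes took 27.2% of all counts against 12.6% to 12.9%, mitochondrial genes took 6.49% against 1.57% to 1.80%, and its Pearson correlation with the others was 0.928 to 0.942 against at least 0.981 among them. For this reason changes are given with all 6 libraries and again without this library. The targeted genes were lower in the knockdown libraries, with Slc25a1 at 98.7 to 108 CPM in Ctrl shRNA and 63.0 to 69.6 CPM after knockdown, and Idh3a at 79.8 to 137 CPM and 55.5 to 58.5 CPM. Their edgeR adjusted p was 0.104 and 0.254 with all 6 libraries, neither under 0.05. Without Ctrl shRNA library 2 it was 0.00649 for Slc25a1 and 0.0142 for Idh3a. CPM are counts scaled for library size, here after TMM scaling. The lung epithelial genes Nkx2-1, Krt8 and Cdh1 were measured in every library, and so was Sftpc, which encodes surfactant protein C, whereas Sftpd had no count. Of 10 macrophage and monocyte markers, Ptprc, Adgre1, Itgam, Marco and Tyrobp had no count in any library.

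Tlr2 was the sensor with the clearest difference. It measured 16.0, 14.0 and 16.7 CPM in Ctrl shRNA libraries 1, 2 and 3, and 28.6, 28.3 and 27.5 CPM in the knockdown libraries. All 3 knockdown libraries lay above all 3 Ctrl shRNA libraries, with means of 15.6 ± 1.42 and 28.2 ± 0.580 CPM (SD, n = 3 in each group), a ratio of 1.81. In the edgeR quasi-likelihood test across all genes, the log2 fold change was 0.85 (SE 0.10, 95% interval 0.62 to 1.09) with all 6 libraries and an adjusted p of 0.0935, which missed the threshold of 0.05. Without Ctrl shRNA library 2, which held the lowest Ctrl shRNA value, Tlr2 rose by 0.77 on the log2 scale (SE 0.08) with an adjusted p of 0.00656, and DESeq2 on all 6 libraries called the same direction with an adjusted p of 5.33e-09. In data simulated from edgeR's own fit, DESeq2 on all 6 libraries called unchanged genes more often than edgeR did. These values rest on 1251 counts summed over the Ctrl shRNA libraries and 2528 over the knockdown libraries. In bulk RNA, more cells that express a gene and more RNA per cell cannot be told apart.

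Nod2 was close to the limit of detection in Ctrl shRNA cells, with 13, 6 and 2 counts, and had 38, 40 and 33 counts after knockdown. The same libraries gave 0.420, 0.304 and 0.0697 CPM in Ctrl shRNA and 1.28, 1.32 and 1.11 CPM in knockdown, so the groups did not overlap here either. The log2 fold change was 2.21 (SE 0.58, 95% interval 0.80 to 3.62) with an edgeR adjusted p of 0.288, and 2.28 (SE 0.56) with an adjusted p of 0.0898 without Ctrl shRNA library 2. DESeq2 gave an adjusted p of 0.0177 with all 6 libraries and 0.00947 without Ctrl shRNA library 2. Limma-voom with sample quality weights gave an adjusted p of 0.0277 with all 6 libraries. In data simulated from edgeR's own fit, DESeq2 called unchanged genes more often than edgeR, with and without Ctrl shRNA library 2. Nod2 passed the filter on low counts only through the knockdown group, so that its inclusion among the genes tested already needed a high knockdown level, and the 95% interval of its change was wide, 1.74-fold to 12.3-fold. Markers of cell types are given beside Tlr2 and Nod2, and their part in these values was not tested. The 10 macrophage and monocyte markers summed to 2.83 to 3.31 CPM in Ctrl shRNA and 4.48 to 4.86 CPM in knockdown, almost all from Cd68 and Mrc1, the only 2 that passed the filter on low counts. Both lay above every Ctrl shRNA library in every knockdown library, with log2 fold changes of 0.51 for Cd68 and 0.75 for Mrc1, and neither passed the edgeR threshold (adjusted p 0.352 and 0.339, and 0.204 and 0.217 without Ctrl shRNA library 2). Lyz2 had 6, 0 and 2 counts in Ctrl shRNA and 4, 2 and 0 in knockdown, Fcer1g had 2, 0 and 0 and then 5, 7 and 3, Csf1r had 3 or fewer in any library, and the 5 markers named above were at 0. Of 13 lung epithelial markers, 8 were tested, and 3 of them lay below every Ctrl shRNA library in every knockdown library, as did 10.7% of all genes tested, while 1, Cdh1, lay above (75.7 to 83.8 CPM against 68.4 to 74.9 CPM), as did 14.7% of all genes. Sftpc was at 44.1 to 97.3 CPM in Ctrl shRNA and 27.2 to 35.9 CPM in knockdown, with a log2 fold change of -1.07 (edgeR adjusted p 0.315), and it fell by 0.65 on the log2 scale (adjusted p 0.0438) without Ctrl shRNA library 2. Nkx2-1 was at 324 to 343 CPM and 277 to 302 CPM, and Epcam at 3.24 to 4.01 CPM and 2.39 to 3.20 CPM, and neither passed the threshold with or without that library. The 13 markers together summed to 1582 to 1709 CPM in Ctrl shRNA and 1645 to 1767 CPM in knockdown. Of 6 fibroblast markers, 3 were tested, with 1 above (Pdgfra, 2.23 to 2.68 CPM and 3.43 to 3.91 CPM) and 1 below (Dcn, 320 to 1211 CPM and 297 to 318 CPM) every Ctrl shRNA library, and their sum was 346 to 1234 CPM in Ctrl shRNA, highest in library 2, and 317 to 345 CPM in knockdown. Of 6 endothelial markers, 3 were tested, with 0 above and 1 below (Tek), and their sum was 37.1 to 46.8 CPM and 32.5 to 33.9 CPM. None of these 6 tested genes passed the edgeR threshold with or without Ctrl shRNA library 2.

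Tlr2 lies on chromosome 3 at 83836272 to 83841767 on the minus strand and Nod2 on chromosome 8 at 88647315 to 88688474 on the plus strand, in the coordinates of the count table (mm10). The stretches just upstream of these 2 genes are printed because these were the members with the largest fold changes, and they were read from RefSeq promoter windows of GRCm38.p6 that run from 250 bases before to 50 bases after each gene's start. Only bases upstream of the gene as the count table places it are shown. Capitals in the first mark 2 overlapping matches to the NF-κB consensus, searched on both strands, and the second has none.
Tlr2, chr3:83841768-83841858, minus strand: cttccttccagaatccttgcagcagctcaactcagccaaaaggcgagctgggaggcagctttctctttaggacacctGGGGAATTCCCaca
Nod2, chr8:88647097-88647314, plus strand: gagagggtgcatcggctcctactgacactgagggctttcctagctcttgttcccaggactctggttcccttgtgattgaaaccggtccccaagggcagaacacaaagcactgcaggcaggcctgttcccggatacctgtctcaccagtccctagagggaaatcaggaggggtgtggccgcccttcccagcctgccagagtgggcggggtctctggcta

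Of the 10 members, 9 had a RefSeq window, all but Tlr4. The windows of Tlr3 and Myd88 lie inside these genes as the count table places them, so their matches are not upstream of the counted gene. The NF-κB consensus was found 3 times in the Tlr2 window, starting at -173, -172 and -8 with the RefSeq start as 0, once in that of Tlr3 at -211, and in no other member's window, against 8.46% of all 32851 windows. The core of the element that interferon-regulatory factors recognise, searched on both strands as GAAA, any 2 bases and GAAA again, was found in the windows of Myd88 at -40 and Ifih1 at +32, against 3.44% of all windows. These are matches of letters within 300 bases and not measured binding.

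**Figure D1:**
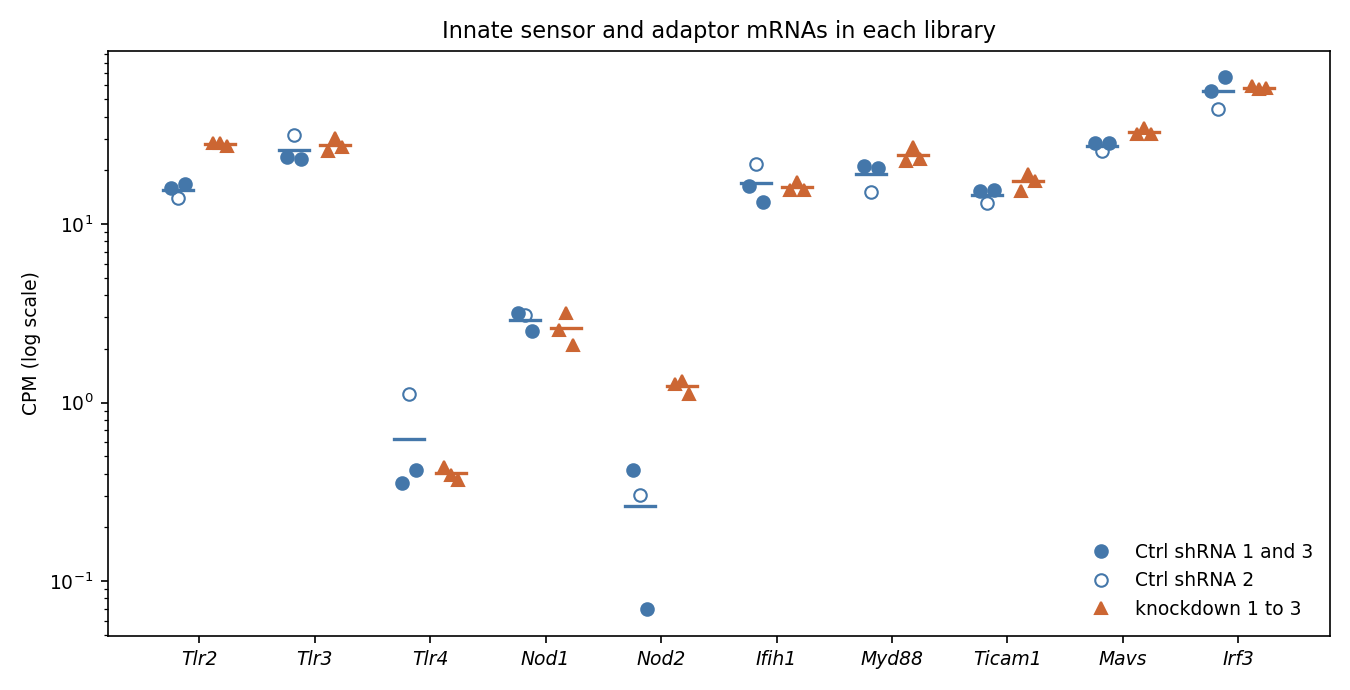
Level of each of the 10 mRNAs in each library, in CPM on a log axis, with circles for Ctrl shRNA (open for library 2), triangles for knockdown and bars for group means. The triangles of Tlr2, Nod2, Myd88 and Mavs lie above every circle of the same gene, while the groups overlap for the other 6.

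Tlr3 did not differ beyond the spread between libraries when all 6 were used. It measured 23.8, 31.5 and 23.3 CPM in Ctrl shRNA and 25.8, 30.3 and 27.1 CPM in knockdown, and the 31.5 CPM of Ctrl shRNA library 2 was the highest value of all. The log2 fold change was 0.08 (SE 0.15, 95% interval -0.27 to 0.43, edgeR adjusted p 0.789), and 0.23 (SE 0.10, adjusted p 0.237) without that library. For Tlr4, the receptor for LPS, only 11, 22 and 12 counts were found in Ctrl shRNA and 13, 12 and 11 in knockdown. The log2 fold change of -0.61 (SE 0.55, edgeR adjusted p 0.579) rested on Ctrl shRNA library 2 and was 0.04 (adjusted p 0.968) without it. The 95% interval was 0.261-fold to 1.65-fold with all 6 libraries and 0.509-fold to 2.09-fold without library 2. These values do not settle whether Tlr4 changed within these limits.

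Nod1, the sister sensor of Nod2, measured 3.17, 3.09 and 2.51 CPM in Ctrl shRNA and 2.55, 3.16 and 2.09 CPM in knockdown, and the groups overlapped. Its log2 fold change was -0.17 (SE 0.23, edgeR adjusted p 0.734), -0.14 without Ctrl shRNA library 2 and 0.02 when libraries were scaled by total count alone. Ifih1 measured 16.3, 21.7 and 13.4 CPM in Ctrl shRNA and 15.6, 17.3 and 15.5 CPM in knockdown, so that the knockdown libraries lay within the Ctrl shRNA range. Its log2 fold change was -0.08 (SE 0.19, edgeR adjusted p 0.839) with all 6 libraries, 0.11 (SE 0.12, adjusted p 0.644) without Ctrl shRNA library 2 and 0.14 with total-count scaling.

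Among the adaptors, the groups did not overlap for Mavs and Myd88 and overlapped for Ticam1. Mavs measured 28.6, 25.7 and 28.3 CPM in Ctrl shRNA and 32.1, 34.4 and 32.1 CPM in knockdown. The difference was small, with a log2 fold change of 0.25 (SE 0.08, 95% interval 0.05 to 0.46), and the edgeR adjusted p was 0.338 with all 6 libraries and 0.222 without Ctrl shRNA library 2, where the log2 fold change was 0.20 (SE 0.08).

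Myd88 measured 21.1, 15.2 and 20.6 CPM in Ctrl shRNA and 22.6, 27.1 and 23.3 CPM in knockdown. Ctrl shRNA library 2 was the low one, and the log2 fold change of 0.36 (SE 0.16, edgeR adjusted p 0.357) was 0.21 (SE 0.10, adjusted p 0.295) without it. Ticam1 measured 15.3, 13.2 and 15.4 CPM in Ctrl shRNA and 15.4, 19.2 and 17.5 CPM in knockdown, with knockdown library 1 inside the Ctrl shRNA range. The log2 fold change of Ticam1 was 0.24 (SE 0.13, edgeR adjusted p 0.385), and 0.16 (SE 0.12, adjusted p 0.460) without Ctrl shRNA library 2.

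Irf3, the factor on which the TRIF and MAVS branches meet, measured 55.9, 44.1 and 66.5 CPM in Ctrl shRNA and 59.4, 57.2 and 58.0 CPM in knockdown. The knockdown libraries were close to each other and lay inside the Ctrl shRNA range. The log2 fold change was 0.07 (SE 0.15, edgeR adjusted p 0.838), and -0.08 (SE 0.08, adjusted p 0.624) without Ctrl shRNA library 2. These are mRNA levels, and the activity of IRF3 is set by phosphorylation, which was not measured here.

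Some members share exonic bases with a gene on the other strand, and the library kit does not mark strand, so that reads there cannot be assigned to one gene. Myd88 shares 290 exonic bases, 11.3% of its exons, with Acaa1a, whose log2 fold change was 0.02 with all 6 libraries and -0.13 without Ctrl shRNA library 2. Irf3 shares 88 bases, 2.56%, with Bcl2l12, whose log2 fold change was 0.06 with all 6 libraries and 0.04 without Ctrl shRNA library 2. Tlr3 shares 381 bases with Gm45542, which had 0 counts in every library. Myd88 also lies within the span of Slc22a14 on the same strand, with 0 shared exonic bases.

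**Figure D2:**
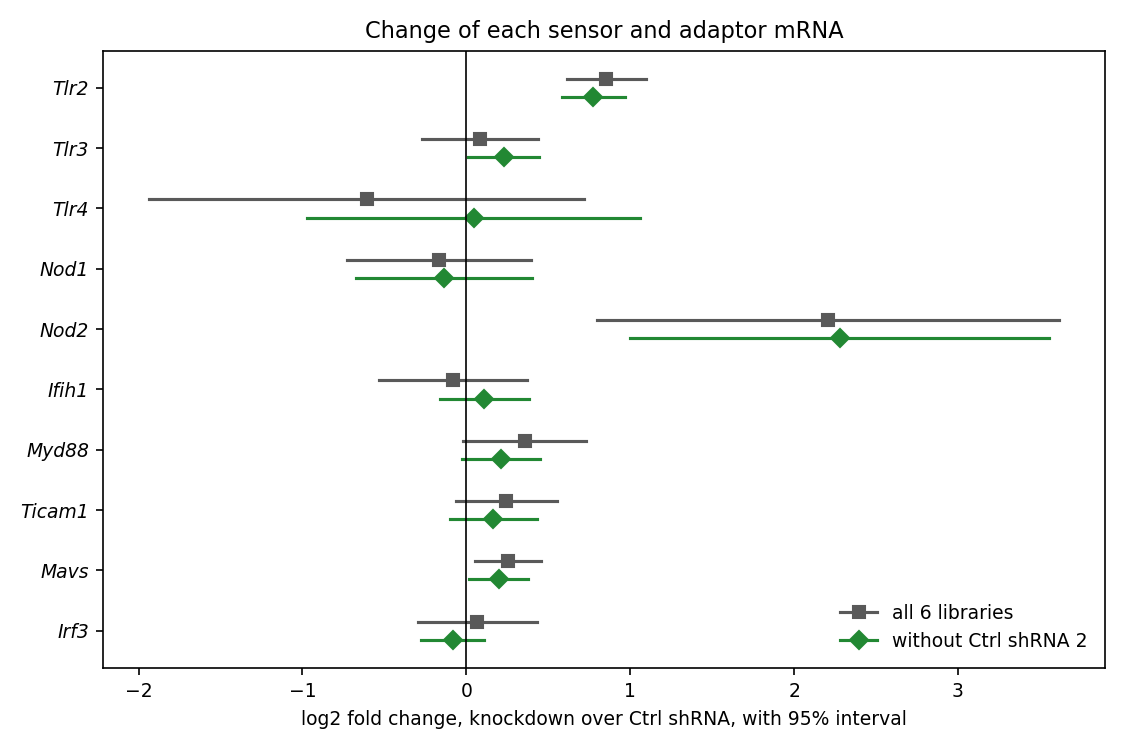
Log2 fold change of knockdown over Ctrl shRNA for each member with its 95% interval from edgeR, with all 6 libraries (squares) and without Ctrl shRNA library 2 (diamonds). The Tlr2 estimates are 0.85 and 0.77, those of Nod2 are 2.21 and 2.28 with wide intervals, and the estimates change sign for Tlr4 (-0.61 and 0.04), Ifih1 (-0.08 and 0.11) and Irf3 (0.07 and -0.08).

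Over the 10 members, none passed the adjusted threshold in edgeR with all 6 libraries. The background was low as well, since 0.0588% of the 15307 genes tested were called higher and 0.00653% lower, which is 9 and 1 genes (limma on log2(FPKM + 1) called 7 and 3). At an unadjusted edgeR p under 0.05, 3 members were higher (Tlr2, Nod2 and Mavs) and 0 lower, against 7.47% and 6.65% of all genes. Without Ctrl shRNA library 2, 1 member was called higher (Tlr2) and 0 lower, against 1.11% and 0.675% of 15709 genes. DESeq2 with all 6 libraries called 2 higher (Tlr2 and Nod2) and 0 lower, against 1.61% and 1.01%. Every knockdown library was above every Ctrl shRNA library for 4 members (Tlr2, Nod2, Myd88 and Mavs) and below for 0, against 14.7% and 10.7% of all genes tested. Nod2 entered the tested genes only through its knockdown libraries, so the counts are given again for the other 9 members: 2 were higher at the unadjusted p, 1 without Ctrl shRNA library 2, 1 in DESeq2, and 3 had every knockdown library above. These counts describe 9 or 10 genes and support no statement about the members as a class. For the 4 genes without overlap the two-sided exact permutation test over the libraries gave p = 0.1, the smallest value that 3 against 3 allows, so that this test cannot reach 0.05.

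The median log2 fold change of the members was 0.16 beside -0.01 over all genes tested, and 0.18 beside -0.02 without Ctrl shRNA library 2. Without Nod2 the medians were 0.08 and 0.16. This library was the lowest of the Ctrl shRNA libraries for 5 members (Tlr2, Myd88, Ticam1, Mavs and Irf3) and the highest for 3 (Tlr3, Tlr4 and Ifih1). Its part in each value is shown by the estimates with and without it.

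Levels can be compared between genes only per length, for which the deposited FPKM values, which are scaled for gene length and library size, were used. In Ctrl shRNA cells Irf3 was the most abundant member at 16.2 ± 3.39 FPKM (SD, n = 3), followed by Mavs at 8.25 ± 0.555, Myd88 at 7.39 ± 1.34, Tlr2 at 5.18 ± 0.516, Tlr3 at 5.04 ± 0.842, Ticam1 at 4.91 ± 0.473 and Ifih1 at 2.10 ± 0.496 FPKM. Nod1 followed at 0.576 ± 0.0685 FPKM, Tlr4 at 0.113 ± 0.0745 FPKM and Nod2 at 0.0528 ± 0.0357 FPKM. Neighbours in this order whose libraries overlapped were Mavs and Myd88, Tlr2 and Tlr3, Tlr3 and Ticam1, and Tlr4 and Nod2.

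After knockdown Irf3 was again first at 17.0 FPKM, and Mavs (9.85), Myd88 (9.47) and Tlr2 (9.37) formed a group in which neighbours overlapped. Ticam1 (5.82) and Tlr3 (5.34) overlapped as well, and Ifih1 (1.98), Nod1 (0.514), Nod2 (0.247) and Tlr4 (0.0724) came last, without overlap. The ratio of Tlr2 to Myd88 in FPKM was 0.648, 0.786 and 0.692 in the Ctrl shRNA libraries and 1.08, 0.894 and 1.01 in the knockdown libraries, without overlap.

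The partners of the Toll-like receptors belong to a list of 18 other receptors, co-receptors and chaperones, of which 8 were tested, with 1 higher (12.5%) and 2 lower (25%) at an unadjusted edgeR p under 0.05, against 7.47% and 6.65% of all genes. Those named here apart from Tlr7 were chosen after their values were seen. Tlr6, a partner of TLR2, measured 11.0, 11.7 and 9.76 CPM in Ctrl shRNA and 7.63, 8.54 and 8.23 CPM in knockdown, below every Ctrl shRNA library, with a log2 fold change of -0.41 (SE 0.13, edgeR adjusted p 0.322) and -0.36 (adjusted p 0.166) without Ctrl shRNA library 2. Tlr1, the other partner, had 0 to 4 counts per library. The ratio of Tlr2 to Tlr6 in FPKM was 1.80, 1.48 and 2.12 in Ctrl shRNA and 4.64, 4.11 and 4.14 in knockdown. With Tlr2 higher and Tlr6 lower in every knockdown library, this ratio could not overlap between the groups. It therefore adds no test to the values of the 2 genes.

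The partners of TLR4 were measured at higher levels than Tlr4 itself. Cd14 was at 2.34 to 5.14 FPKM in Ctrl shRNA and 2.67 to 3.15 FPKM in knockdown, and Ly96, which encodes MD-2, at 0.891 to 2.12 FPKM and 0.924 to 1.13 FPKM, while Tlr4 did not exceed 0.199 FPKM in any library. Lbp, the LPS-binding protein, measured 158 to 195 CPM in Ctrl shRNA and 217 to 235 CPM in knockdown, with a log2 fold change of 0.31 (edgeR adjusted p 0.339), and 0.21 (adjusted p 0.152) without Ctrl shRNA library 2. Tlr7, a sensor of single-stranded RNA in endosomes, measured 22.3, 31.7 and 21.3 CPM in Ctrl shRNA and 14.8, 15.7 and 12.2 CPM in knockdown. Its log2 fold change was -0.82 (SE 0.19, edgeR adjusted p 0.251) with all 6 libraries, and without Ctrl shRNA library 2, its highest value, Tlr7 fell by 0.62 on the log2 scale (SE 0.12, adjusted p 0.0421). Tlr8, Tlr9, Tlr11, Tlr12 and Tlr13 had 0 counts in all 6 libraries, and a count of 0 allows up to 3 counts, or 0.0969 to 0.152 CPM, in a library.

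**Figure D3:**
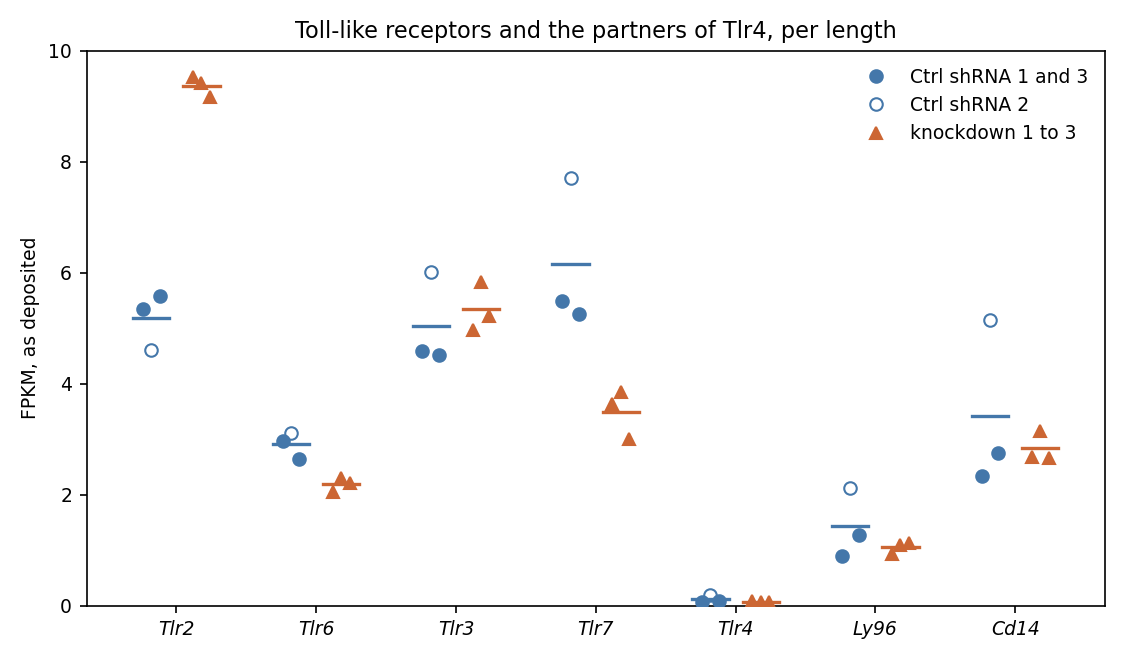
Deposited FPKM values of Tlr2 and its partner Tlr6, of Tlr3 and Tlr7, and of Tlr4 with its partners Ly96 and Cd14, with symbols as in the plot of CPM by library and bars for group means. Tlr2 moves from 5.18 to 9.37 FPKM on average, the Tlr6 and Tlr7 triangles lie below every circle of their gene, and Tlr4 stays near 0.

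Beyond the members, 115 other genes of innate sensing were taken in 8 lists, and 80 passed the filter on low counts. With all 6 libraries 0 of the 80 passed the edgeR threshold, with 14 higher (17.5%) and 5 lower (6.25%) at an unadjusted p under 0.05, against 7.47% and 6.65% of all genes, and their median log2 fold change was 0.05 beside -0.01 for all genes. Without Ctrl shRNA library 2, 3 of 82 were called higher (Irf1, Ikbke and Cxcl10) and 1 lower (Tlr7), against 1.11% and 0.675% of all genes. DESeq2 with all 6 libraries called 3 higher (Irf1, Ikbke and Samhd1) and 1 lower (Tlr7), against 1.61% and 1.01% of all genes.

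The list of kinases and transcription factors that act between the adaptors and the interferon genes held 12 genes, all tested, of which 5 (41.7%) were higher and 0 lower at an unadjusted edgeR p under 0.05, against 7.47% and 6.65% of all genes, and its median log2 fold change was 0.26 beside -0.01 for all genes. Ikbke, a kinase that phosphorylates IRF3, measured 13.7, 13.2 and 14.2 CPM in Ctrl shRNA and 19.4, 21.6 and 23.3 CPM in knockdown. It had a log2 fold change of 0.65 (SE 0.11, edgeR adjusted p 0.174) with all 6 libraries and rose by 0.61 (SE 0.11, adjusted p 0.0336) without Ctrl shRNA library 2. Irf1, a factor that interferons and NF-κB switch on, measured 82.5, 61.1 and 78.0 CPM in Ctrl shRNA and 121, 118 and 115 CPM in knockdown. Its log2 fold change was 0.68 (SE 0.12, edgeR adjusted p 0.179), and without Ctrl shRNA library 2 it rose by 0.55 (SE 0.07, adjusted p 0.0115). Tbk1, the kinase most closely related to IKKε, is given beside them although chosen after its values were seen, and measured 84.4 to 97.0 CPM in Ctrl shRNA and 86.5 to 91.5 CPM in knockdown, with overlapping groups.

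Genes that IRF3 is known to switch on had a median log2 fold change of -0.40 over the 8 tested beside -0.01 for all genes, and -0.26 beside -0.02 without Ctrl shRNA library 2. At an unadjusted edgeR p under 0.05, 0 of them were higher and 2 (25%) lower with all 6 libraries, against 7.47% and 6.65% of all genes. Without that library DESeq2 called 1 gene of this list higher and 1 lower. Cxcl10, a chemokine for T cells, was the 1 gene of this list that edgeR called without Ctrl shRNA library 2. It measured 3.52, 11.9 and 5.02 CPM in Ctrl shRNA and 11.3, 11.9 and 9.64 CPM in knockdown, so the groups overlapped through Ctrl shRNA library 2, and the log2 fold change was 0.70 (SE 0.44, edgeR adjusted p 0.440) with it and 1.35 (SE 0.18, adjusted p 0.0142) without it. Of 9 interferon genes, 8 had no count in any library, Ifnb1 for interferon β among them, and Ifna2 had 2 counts in knockdown library 2 alone.

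In the remaining lists 0 genes passed the edgeR threshold with either set of libraries. At an unadjusted edgeR p under 0.05 with all 6 libraries, where 7.47% of all genes were higher and 6.65% lower, the counts were as follows. Of 18 adaptors and kinases of the Toll-like receptors tested, 2 were higher (11.1%) and 0 lower. Of 15 genes of cytosolic RNA sensing, 3 were higher (20%) and 0 lower, and of 9 NOD-like receptors and their partners, 1 was higher (11.1%) and 0 lower. The one higher in the last list, Ripk2, is the kinase through which NOD1 and NOD2 signal, and it was named after its values were seen. Ripk2 measured 18.3, 17.3 and 18.7 CPM in Ctrl shRNA and 25.5, 22.4 and 21.8 CPM in knockdown, with a log2 fold change of 0.36 (SE 0.10, edgeR adjusted p 0.296), and 0.32 (adjusted p 0.139) without Ctrl shRNA library 2. Of 10 genes of cytosolic DNA sensing, 2 were higher (20%) and 1 lower (10%), and Samhd1, which breaks down deoxynucleotides, measured 193, 192 and 187 CPM in Ctrl shRNA and 236, 248 and 231 CPM in knockdown. Its log2 fold change was 0.32 (SE 0.07), with an edgeR adjusted p of 0.245 with all 6 libraries and 0.0632 without Ctrl shRNA library 2, neither past the threshold, and a DESeq2 adjusted p of 0.00317 with all 6.

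**Figure D4:**
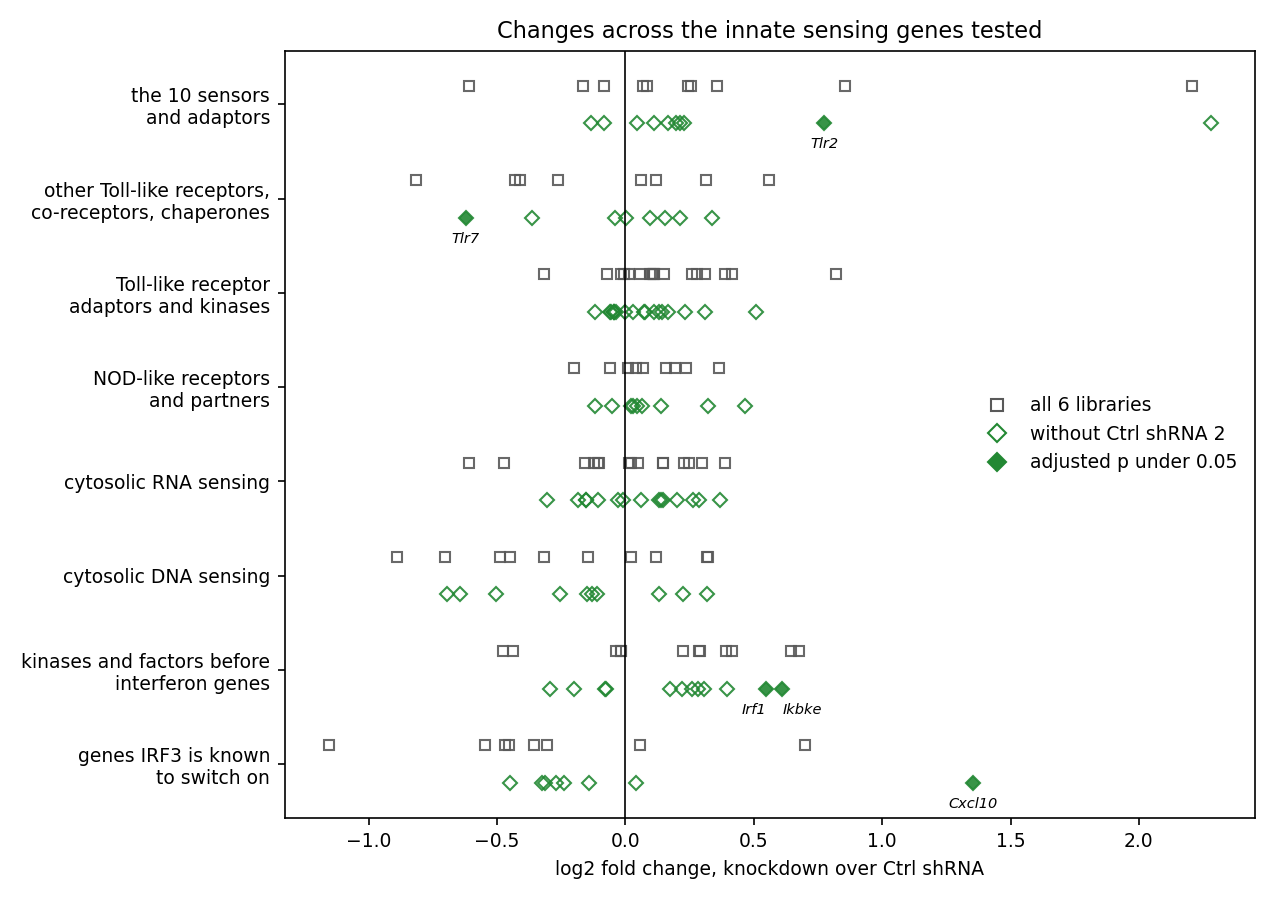
Log2 fold change of the 10 members and of the 80 other innate sensing genes tested with all 6 libraries, 1 row per list, with squares for all 6 libraries and diamonds without Ctrl shRNA library 2. Filled symbols mark an edgeR adjusted p under 0.05, which Tlr2, Tlr7, Irf1, Ikbke and Cxcl10 reach without Ctrl shRNA library 2 and no gene shown reaches with all 6.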

How the data were processed

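RNA-seq counts were analysed in 6 libraries of MLE12 cells, 3 Ctrl shRNA and 3 knockdown, grouped by their labels. The authors deposited whole-number counts per Ensembl gene, without normalization, and FPKM values, in which the counts are divided by gene length and by a scaled library size, 0.716 to 1.08 times the total count. The submitters' processing notes name HISAT2 2.0.5, StringTie 1.3.3b, featureCounts 1.5.0-p3 and mm10, with no role given, and the strand setting of the counting is not given in the sources used here.

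Counts were filtered with filterByExpr, scaled by TMM and tested with the edgeR 4.0.16 quasi-likelihood test on all genes, with Benjamini-Hochberg adjustment and a threshold of 0.05. CPM use the TMM library sizes. DESeq2 1.42.0 (no independent filtering), limma 3.58.1 (voom with sample quality weights, or log2(FPKM + 1) and log2(FPKM + 0.1)), other scalings and filters, a replicate block and leaving out each library were alternatives. Each method was tested on simulated data, in which more unchanged genes were called than by edgeR with the same libraries by DESeq2 (with or without Ctrl shRNA library 2), limma on log2 FPKM and the replicate block (all 6 libraries), and voom weights (without that library). The simulated counts were drawn from edgeR's own fitted means and dispersions. This may favour edgeR, so the simulation does not rank the methods on the measured libraries. Exact permutation tests were two-sided. No column of per-sample values was left unused.

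The members and lists were chosen with earlier results of these data known. Named were all members, genes overlapping them, interferon genes by their counts, and up to 6 genes per list past the threshold in edgeR with or without Ctrl shRNA library 2 or in DESeq2. Cell type markers come from their own lists, and those named singly were chosen after their values were seen. Other genes are marked so in the text. Promoter windows came from RefSeq GRCm38.p6.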

Additional observations from a re-analysis of the deposited data

How the results depend on the processing

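With all 6 libraries and edgeR, 0 of the 10 members, 0 of the 80 other innate sensing genes and 10 of all genes passed the threshold. DESeq2 called 2, 4 and 402 genes, voom with sample quality weights 2, 10 and 701, DESeq2 without Ctrl shRNA library 2 called 2, 9 and 836, and an unadjusted edgeR p under 0.05 gave 3, 19 and 2162. Leaving out 1 library at a time gave 0 to 1, 0 to 4 and 0 to 281 genes, and the highest of each range came without Ctrl shRNA library 2. Scaling by total count alone called 1 gene in all, and it moved the median log2 fold change of all genes to 0.16 from -0.01. The causes of these differences were not tested.

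Tlr2 was higher in 16 of 16 alternatives (0.75 to 1.01 on the log2 scale) and called in 4 of them. Nod2, which entered the test through its knockdown libraries, was called in 3 of 15, which says nothing of its stability, and its lowest value, 0.24, is on the log2(FPKM + 1) scale, where the pseudocount exceeds its level. Leaving out 1 library moved Nod2 over 1.73 (without Ctrl shRNA library 3) to 2.79 (without Ctrl shRNA library 1), and voom weights gave 3.17. Over the 159 member and alternative pairs, 141 kept direction and side of the threshold, 7 newly passed it (4 of Tlr2 and 3 of Nod2), and 11 changed direction, in genes that did not pass. Leaving out 1 library moved Tlr3 over -0.0081 to 0.23, Tlr4 over -0.90 to 0.044, Ifih1 over -0.25 to 0.11 and Irf3 over -0.082 to 0.20. DESeq2 without Ctrl shRNA library 2 gave 0.049 for Tlr4, 0.11 for Ifih1 and -0.077 for Irf3. Total-count scaling gave 0.016 for Nod1 and 0.14 for Ifih1, and voom weights gave 0.15 for Ifih1 and -0.10 for Irf3. Nod2 could not be tested with at least 10 counts in every library.

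A block on the replicate number called 0 of all genes, 0 members and 0 of the other sensing genes, and gave 0.86 for Tlr2 and 2.37 for Nod2. Libraries with the same number had deviations correlated at r = -0.15 to 0.04 over 3 pairs, and other pairs at -0.04 to 0.15, so the numbers were not taken as pairs, although a shared batch or culture cannot be told from them.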
